A study of Mus musculus with 93 samples.

Results

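Kdr, Tek, Calcrl, Eng and Nrp1 encode receptors best known from blood vessels, Pecam1 and Cdh5 encode junction proteins of endothelial cells, and Vegfa and Angpt1 encode ligands that act on vessels. These 9 genes were chosen by symbol, to ask at what level sorted lung cells carry them and whether the receptors occur in cells without Pecam1 and Cdh5. Of the 9, 8 had values, among 21285 genes with values in all. The row of Vegfa held dashes in place of numbers, so it is not analysed here.

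VEGF-A signals to endothelial cells mainly through the receptor tyrosine kinase KDR (VEGFR2), and neuropilin 1 (NRP1) acts as a co-receptor that also binds class 3 semaphorins. Angiopoietin 1, a product of cells around the vessel, activates TEK (TIE2) on the endothelium and stabilises it. CALCRL becomes a receptor for adrenomedullin or CGRP when paired with a RAMP protein, and endoglin (ENG) is a co-receptor for ligands of the BMP and TGF-beta family that works with ACVRL1. In the lung these pairs are described above all as signals between the capillary network and the mesenchyme beside it.

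Single-cell RNA-seq was made from lungs of adult C57BL/6 mice of the genotype Tbx4cre;RosaTm, in which Cre under Tbx4 control permanently switches on a reporter, so lineage+ marks a cell or an ancestor that once had Cre activity. By the labels 54 libraries are Tbx4 lineage+ and 39 are Tbx4 lineage-, both sorted from the same genotype and run on Fluidigm C1 chips, a device that captures single cells. The written gate is positive for epcam and negative for CD31, CD45 and the dead-cell dye 7AAD, while the design text calls both groups mesenchymal. CD31 is the protein of Pecam1, so cells with it on their surface were sorted away in both groups.

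Lineage+ well names begin with 7m-Lung and lineage- ones with Tbx4-2, prefixes whose meaning is not stated. No label names an animal or a chip, and lineage group cannot be told apart from either. Each group is therefore 1 sample, no p-value was computed, and intervals are exact Clopper-Pearson 95% intervals that cover counting error over cells alone. After near-identical profiles were averaged (lineage+ cells 2 and 15, and 9 and 23), cells were kept if 1000 or more genes reached 1 FPKM, which left 50 lineage+ and 34 lineage- cells. The kept lineage- cells include cell 23, whose label holds the word debris and in which all 8 genes were at 0. Lineage+ cells had a median of 2412.5 detected genes, and the median was 1812 in lineage- cells. Estimated reads per cell had a median of 6680000 in lineage+ cells (2480000 to 9890000) and 7370000 in lineage- cells (164000 to 12400000). By clusters that left the genes studied here out, 40 lineage+ cells were fibroblast-like and 10 mesothelial-like, the class of the cells that line the lung surface. Of the lineage- cells, 9 were epithelial-like with Ager in the lead, 7 immune-like, 4 fibroblast-like and 1 mesothelial-like. The other 13 formed a cluster led by Cd74, H2-Aa and Cbr2 that was given no name. Its leading genes also held the surfactant genes Sftpa1 and Sftpd. Epcam was detected in 1 of 50 lineage+ cells and 12 of 34 lineage- cells.

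Pecam1 and Cdh5, the endothelial junction genes, were at or next to 0 throughout. Pecam1 (platelet endothelial cell adhesion molecule, chromosome 11, 106654218 to 106715281, GRCm38 as for all positions here) was listed at 0 in all 50 lineage+ and all 34 lineage- cells. Cdh5 (VE-cadherin, chromosome 8, 104101625 to 104144502) was listed at 0 in all 50 lineage+ cells and in 33 of 34 lineage- cells. The exception, lineage- cell 20, stood at 0.0236 FPKM, about 1 read by the estimated depth of that cell. A limit of 3 counts of the total is given here, and later for Kdr and Eng within a class. By it 0 of 50 lineage+ cells allows a share of up to 6% and 0 of 34 lineage- cells up to 8.82%. The exact intervals end slightly higher, at 7.11% and 10.3%. Exact zeros were common: 6149 of the 21285 genes were listed at 0 in all 84 cells, and of 21 genes that every cell uses 13 were at 0 in at least 1 cell, Pgk1 in 32 and Gapdh in 6 of 84.

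The receptors did occur in cells without the junction genes, a condition that every kept cell met. No kept cell had Pecam1 or Cdh5 at 1 FPKM, and cells with CD31 were sorted away. The shares below are therefore those of receptor detection alone. At least 1 of Kdr, Tek, Calcrl, Eng and Nrp1 was detected at 1 FPKM or more in 43 of 50 lineage+ cells (86%, with an interval from 73.3 to 94.2%), against 20 of 34 lineage- cells (58.8%, 40.7 to 75.4%), and none of them had Pecam1 or Cdh5 at 1 FPKM. Nrp1 was in 35 of the 43 lineage+ cells and 17 of the 20 lineage- cells. Without it, Kdr, Tek, Calcrl or Eng was detected in 23 of 50 lineage+ cells (46%, 31.8 to 60.7%), against 4 of 34 lineage- cells (11.8%, 3.30 to 27.5%). The intervals of this narrower share do not overlap. For how large a share of all genes this holds was not counted, and lineage+ cells had more detected genes (medians of 2412.5 and 1812). Of the lineage+ cells, 7 had none of the 5 receptors, 27 had 1, 14 had 2 and 2 had 3.

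Most other endothelial genes were likewise undetected in the kept cells. Of 28 further endothelial markers 26 had values, of which 7 were detected in any lineage+ cell and 5 in any lineage- cell, with at most 2 per cell in either group. The VEGF receptor Flt1, the orphan TIE receptor Tie1, the tight-junction gene Cldn5 and Vwf, the von Willebrand factor, were among 13 listed at 0 in all 50 lineage+ cells. Vwf was detected in 1 of 34 lineage- cells, at 38.0 FPKM. Other markers were detected in a few lineage+ cells. Ecscr was in 3 (95.4 to 285.1 FPKM), Ramp2 in 4, Plvap in 2 (22.3 and 30.8 FPKM), and Emcn, Mmrn2 and Clec14a in 1 each. The summed level of the 26 markers ran up to 491.7 FPKM in lineage+ cells (median 0.0349) and 1043 FPKM in lineage- cells (median 0.452). The highest single values came from Esam, an adhesion gene of endothelium detected in 5 of 50 lineage+ cells and 6 of 34 lineage- cells, and from Car4, a carbonic anhydrase of lung capillaries, at 1 FPKM in 0 of 50 lineage+ cells and 6 of 34 lineage- cells.

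**Figure D1:**
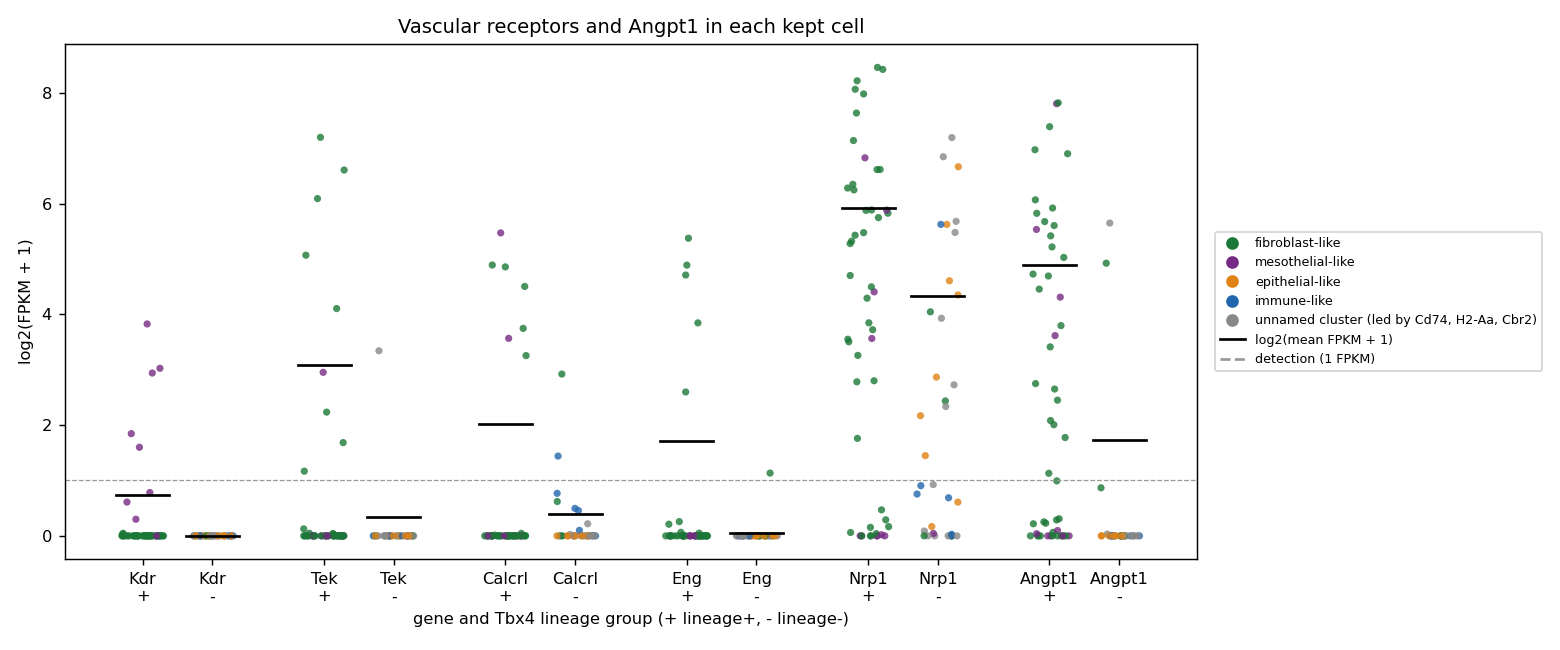
Level of each gene, as log2(FPKM + 1), in every kept cell, with lineage+ left of lineage- and points coloured by cell class. Black bars mark log2(mean FPKM + 1) and the dashed line marks detection at 1 FPKM. Kdr is carried by mesothelial-like lineage+ cells, Tek and Eng mostly by fibroblast-like ones, and Nrp1 spreads over both groups.

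Across the groups, 5 of the 8 genes with values had a mean 2-fold or more higher in lineage+ cells while being detected in 10% or more of either group's cells, namely Angpt1, Tek, Eng, Calcrl and Nrp1. The calls of Tek, Calcrl and Eng were lost with 10 FPKM added and with the mean of log2 values, which leaves a count of 2. Over all 21285 genes 10.6% met the same rule, and among the 7588 genes detected in 10% of cells 29.7% did. None of the 8 was at least 2-fold lower, against 8.35% of all genes. In lineage+ cells the means ran from Nrp1 (59.8 FPKM) through Angpt1 (28.8), Tek (7.43), Calcrl (3.07) and Eng (2.26) to Kdr (0.663). The shares of lineage+ cells with Tek, Calcrl, Eng and Kdr, from 18% to 10%, have overlapping intervals, so that order is not fixed by 50 cells. Each group has its own deposited table, and whether both share a scaling is not given in any source used here, which touches every level set across groups. The median log2 ratio over 999 genes detected in 50% of cells was 0.12.

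Kdr, the main VEGF-A receptor (chromosome 5, 75933270 to 75978428), was found in 5 of 50 lineage+ cells (10%, 3.33 to 21.8%) and listed at 0 in all 34 lineage- cells. The 5 values were 13.2, 7.14, 6.67, 2.59 and 2.03 FPKM, in lineage+ cells 7, 6, 8, 51 and 24, and correspond to about 81 to 510 reads. No ratio was formed against lineage- cells listed at 0. All 5 were mesothelial-like. Kdr was thus detected in 5 of 10 mesothelial-like lineage+ cells (50%, 18.7 to 81.3%) and in 0 of 40 fibroblast-like ones, which allows up to 7.5% by 3 counts and 8.81% by the exact interval. Among the 674 genes detected in exactly 5 lineage+ cells, 18 (2.67%) had all 5 in the mesothelial-like class.

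Weaker Kdr values lay mostly in the same class. Any value above 0 occurred in 8 of the 10 mesothelial-like lineage+ cells, with cells 27, 26 and 48 at 0.720, 0.526 and 0.231 FPKM, and in 2 of the 40 fibroblast-like cells, at 0.0333 and 0.0205 FPKM, about 1 read each. The Kdr cells carried 6 to 9 of 10 mesothelial markers (median 9), against 0 to 10 (median 1) in the other 45 lineage+ cells. Msln, the gene of mesothelin, ranged from 67.0 to 1233 FPKM and Upk3b, a uroplakin of mesothelium, from 149 to 570 FPKM in these 5 cells. All these markers belong to the list that named the class, so they restate the placement of the Kdr cells and are no separate evidence for it. Of the other endothelial markers they carried at most 1 each, Esam in 1 cell at 491.7 FPKM, and Flt1 and Tie1 were at 0. The 5 cells with Kdr had a median of 2967 detected genes, and the 45 without it 2397, and the part of this in the result was not tested. Mesothelial-like and fibroblast-like lineage+ cells had like depths, with medians of 6280000 and 6680000 estimated reads. Their medians of detected genes differed, at 2921.5 and 2379.

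The VEGF co-receptor Nrp1 was found in 2 of the 5 Kdr cells (cells 8 and 51, at 20.2 and 57.9 FPKM) and in 2 of the 5 mesothelial-like cells without Kdr. None of the 5 had Tek, Calcrl or Eng at 1 FPKM. Sema3c, a secreted semaphorin that binds neuropilins, was detected in all 5 Kdr cells and in 18 of the other 45 lineage+ cells. It was likewise frequent in the class as a whole, in 9 of 10 mesothelial-like and 14 of 40 fibroblast-like lineage+ cells.

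Tek, the angiopoietin receptor (chromosome 4, 94739300 to 94874939), was detected in 9 of 50 lineage+ cells (18%, 8.58 to 31.4%), against 1 of 34 lineage- cells (2.94%, 0.0744 to 15.3%). In lineage+ cells it stood at 145.5 FPKM in cell 1, 96.3 in cell 11, 67.1 in cell 41, 32.5 in cell 40, 16.2 in cell 22, 6.74 in cell 19, 3.70 in cell 44, 2.21 in cell 12 and 1.25 FPKM in cell 32. The single lineage- cell, number 10, stood at 9.14 FPKM, inside the lineage+ range. The mean was 7.43 FPKM in lineage+ cells and 0.269 FPKM in lineage- cells, for a log2 ratio of 2.73 after adding 1 FPKM to both means, which understates the ratio of low genes. Cell 1 alone held 39.2% of the lineage+ sum.

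Tek cells were mostly fibroblast-like, 8 of 40 (20%, 9.05 to 35.7%), with 1 of 10 mesothelial-like cells (10%, 0.253 to 44.5%). Among the 388 genes detected in 9 lineage+ cells 33.8% had at least 8 in the fibroblast-like class, so this split is common. Pdgfrb, the PDGF receptor of pericytes and fibroblasts, was found in 6 of the 9 Tek cells and in 11 of the 41 other lineage+ cells, while 7.47% of the 388 genes had Pdgfrb in at least 6 of their 9 cells. Of 15 pericyte markers, the Tek cells carried 1 to 4 (median 2) and the other lineage+ cells 0 to 4 (median 1). Pdgfrb is on that list, so the list counts and sums repeat it in part. The pericyte genes Cspg4 and Notch3 were listed at 0 in all 50 lineage+ cells, and Rgs5 was at 0 in the 9 Tek cells. The summed level of the pericyte list ran from 1.17 to 352 FPKM (median 41.0) in Tek cells and from 0 to 242.6 FPKM (median 27.3) in the others, and the part of this in the Tek values was not tested.

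The ligand Angpt1 and its receptor Tek were found in some of the same cells. Angpt1 was detected in 6 of the 9 Tek cells and in 22 of the 41 lineage+ cells without Tek. Cell 41 combined Tek at 67.1 FPKM with Angpt1 at 118.3 FPKM, while cell 22 had Tek at 16.2 FPKM and Angpt1 at 0. Lineage- cell 10 also held both, with Angpt1 at 49.1 FPKM. Nrp1 was detected in 8 of 9 Tek cells, against 27 of the 41 others.

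**Figure D2:**
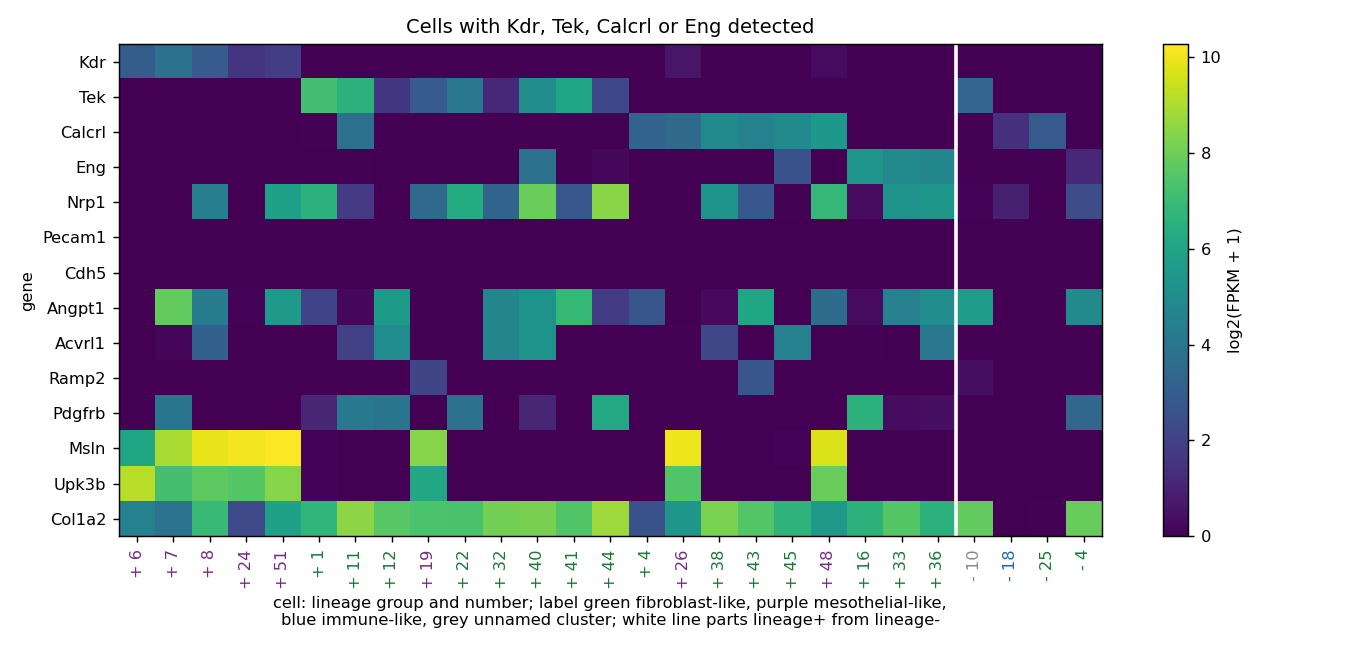
Levels, as log2(FPKM + 1), of the receptors, junction genes, Angpt1, partners and class markers (rows) in the 23 lineage+ cells (left of the white line) and 4 lineage- cells (right of it) in which Kdr, Tek, Calcrl or Eng was detected. Msln and Upk3b are detected in every cell of the Kdr block, and also in lineage+ cell 19 with Tek and cells 26 and 48 with Calcrl. Col1a2 is detected in all 23 lineage+ cells, those with Kdr included, and the rows of Pecam1 and Cdh5 are empty.

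Calcrl, the receptor for adrenomedullin and CGRP (chromosome 2, 84330627 to 84425266), was detected in 7 of 50 lineage+ cells (14%, 5.82 to 26.7%), against 2 of 34 lineage- cells (5.88%, 0.721 to 19.7%). The lineage+ values were 43.3 FPKM in cell 48, 28.6 in cell 38, 28.0 in cell 45, 21.7 in cell 43, 12.4 in cell 11, 10.8 in cell 26 and 8.54 FPKM in cell 4. The lineage- values were 6.58 FPKM in cell 25 and 1.72 FPKM in cell 18, both below every lineage+ cell in which it was detected. Cell 25, although in a fibroblast-like cluster, carried 1 of 18 fibroblast markers. The mean was 3.07 FPKM in lineage+ cells and 0.311 FPKM in lineage- cells, for a log2 ratio of 1.63. Calcrl was found in both lineage+ classes, in 2 of 10 mesothelial-like and 5 of 40 fibroblast-like cells.

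Traces of Calcrl below 1 FPKM were more widespread in lineage- cells. Any value above 0 occurred in 11 lineage+ and 13 lineage- cells, of which 3 and 6 were worth less than 1 read by the estimated depth. In the lineage- group 6 of the 7 immune-like cells were above 0, at up to 1.72 FPKM. Ramp2, which turns CALCRL into an adrenomedullin receptor, was detected in 1 of the 7 Calcrl cells (cell 43, 5.80 FPKM), in 4 of 50 lineage+ cells in all and in 0 of 34 lineage- cells. Ramp1, the partner that makes a CGRP receptor, was detected in 0 of 50 lineage+ cells and 4 of 34 lineage- cells, and Ramp3 was listed at 0 throughout. So 6 of the 7 lineage+ cells with Calcrl had no RAMP gene at 1 FPKM. Of 10 smooth muscle markers the Calcrl cells carried 1 to 3 (median 2) and the other lineage+ cells 0 to 4 (median 0), with summed levels of 10.3 to 236.7 FPKM (median 20.9) against 0 to 421.4 FPKM (median 0.403). Their part in the Calcrl values was not tested.

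Eng, the endoglin gene (chromosome 2, 32646595 to 32682669), was detected in 5 of 50 lineage+ cells (10%, 3.33 to 21.8%), just the share the 10% rule asks for, and in 1 of 34 lineage- cells. It stood at 40.4 FPKM in lineage+ cell 16, 28.6 in cell 33, 25.2 in cell 36, 13.4 in cell 40 and 5.05 FPKM in cell 45. Lineage- cell 4, the single one, stood at 1.19 FPKM, below all 5. The mean was 2.26 FPKM in lineage+ cells and 0.0351 FPKM in lineage- cells, for a log2 ratio of 1.66. All 5 were among the 40 fibroblast-like cells, with 0 of 10 mesothelial-like cells, which allows up to 30% by 3 counts and 30.9% by the exact interval. Of the 674 genes detected in 5 lineage+ cells 27.2% were likewise placed, so the split is not unusual.

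Eng had its known partner in several of these cells. Acvrl1, the type I receptor that endoglin assists, was detected in 3 of the 5 Eng cells and in 10 of the 45 others, at 37.3 FPKM in cell 40, 21.9 in cell 45 and 16.1 in cell 36. Over the groups Acvrl1 was detected in 13 of 50 lineage+ cells and 0 of 34 lineage- cells, with means of 4.63 and 0.00343 FPKM. The TGF-beta receptors Tgfbr2 and Tgfbr3 were both detected in all 5 Eng cells, and in 28 and 36 of the 45 others. The 5 Eng cells had a median of 2691 genes detected, against 2347 in the 45 others.

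With Nrp1 left aside, 3 of the 50 lineage+ cells held a pair of receptors. They were lineage+ cell 11, with Tek at 96.3 and Calcrl at 12.4 FPKM, cell 40, with Tek at 32.5 and Eng at 13.4 FPKM, and cell 45, with Calcrl at 28.0 and Eng at 5.05 FPKM. All 3 were fibroblast-like. Within that class Calcrl was detected in 1 of 8 cells with Tek and 4 of 32 without it, and Eng likewise in 1 of 8 and 4 of 32.

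Nrp1, the VEGF and semaphorin co-receptor (chromosome 8, 128359073 to 128505475), was the most widely detected of the 8 genes. It was found in 35 of 50 lineage+ cells (70%, 55.4 to 82.1%), against 17 of 34 lineage- cells (50%, 32.4 to 67.6%). The lowest, median and highest values were 0, 19.4 and 350.4 FPKM in lineage+ cells and 0, 1.32 and 145.1 FPKM in lineage- cells. The mean was 59.8 FPKM in lineage+ cells and 19.2 FPKM in lineage- cells, for a log2 ratio of 1.59, or 2.94 among cells with at least 2000 genes. That cut shifts the mix of lineage- classes. It keeps all 4 fibroblast-like cells and the mesothelial-like one, while the epithelial-like class has a median of 1750 genes and the unnamed cluster 1458. The groups overlap over most of their range, and the 6 highest lineage+ cells, from 197.5 to 350.4 FPKM, lay above every lineage- cell.

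Within lineage+ cells Nrp1 was detected in 31 of 40 fibroblast-like cells (77.5%, 61.5 to 89.2%), with a mean of 69.8 FPKM, and in 4 of 10 mesothelial-like cells (40%, 12.2 to 73.8%), with a mean of 20.1 FPKM that was 9.88 FPKM without cell 48. The intervals overlap. Nrp1 was also found outside these classes. It was in 7 of 9 epithelial-like lineage- cells, 7 of 13 cells of the cluster led by Cd74 and 1 of 7 immune-like cells. The 7 cells of that cluster held the surfactant gene Sftpb at 531.8 to 2717 FPKM, and its cells without Nrp1 held it at 0 to 723 FPKM. The epithelial-like mean of 22.6 FPKM was 12.9 FPKM without cell 21, and the other cluster's mean of 29.1 FPKM was 19.4 FPKM without cell 34, whose 145.1 FPKM amount to about 87 reads. Nrp2, a separate gene related to Nrp1 and a receptor for VEGF-C and semaphorins, was detected in 10 of 50 lineage+ cells and 6 of 34 lineage- cells (4.15 and 1.91 FPKM).

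Over the 50 lineage+ cells the genes whose levels ran most like Nrp1 were Timp3, an inhibitor of metalloproteinases (Spearman rho 0.59), Ppap2b, a lipid phosphatase (0.52), and Cnn3, a calponin (0.52), among 4057 genes that 20% or more of the cells had. Within the 40 fibroblast-like cells the same pairs had rho of 0.49, 0.57 and 0.48. These values describe cells that differ in depth and may share a chip.

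**Figure D3:**
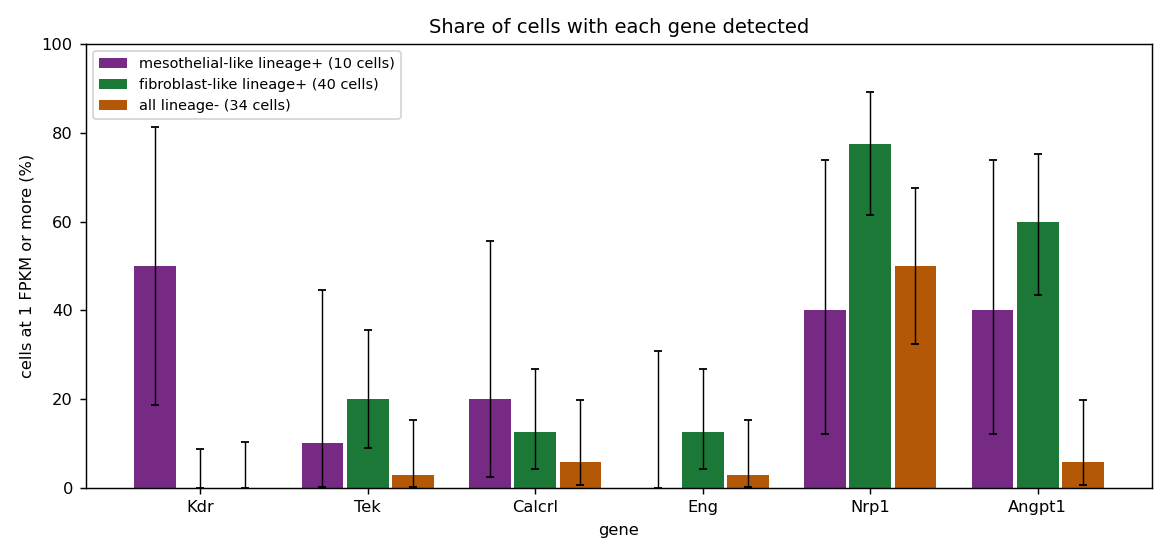
Share of cells with each gene at 1 FPKM or more, in percent, in mesothelial-like lineage+, fibroblast-like lineage+ and all lineage- cells, with exact 95% intervals as error bars. Kdr reaches 50% in mesothelial-like cells and 0% in the other bars, while Nrp1 and Angpt1 reach 77.5% and 60% in fibroblast-like cells, with intervals that overlap those of mesothelial-like cells.

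Angpt1, the ligand that activates TEK (chromosome 15, 42424725 to 42676795), had the largest log2 ratio of the 5 genes when 1 FPKM was added to the means. It was detected in 28 of 50 lineage+ cells (56%, 41.3 to 70.0%), against 2 of 34 lineage- cells (5.88%, 0.721 to 19.7%). These intervals do not overlap, and the share of all genes for which this holds was not counted. The lowest, median and highest values were 0, 3.13 and 224.5 FPKM in lineage+ cells and 0, 0 and 49.1 FPKM in lineage- cells. The mean was 28.8 FPKM in lineage+ cells and 2.33 FPKM in lineage- cells, for a log2 ratio of 3.16. Without the highest cell of each group (lineage+ cell 35 and lineage- cell 10) the ratio was 3.75, and among cells with at least 2000 genes it was 1.94. As for Nrp1, that cut shifts the mix of lineage- classes and keeps all 4 fibroblast-like cells. Both lineage+ classes had it, in 24 of 40 fibroblast-like cells (60%, 43.3 to 75.1%) and 4 of 10 mesothelial-like cells (40%, 12.2 to 73.8%), with means of 28.6 and 29.8 FPKM, although the mesothelial-like mean was 8.38 FPKM without cell 7 at 222.2 FPKM.

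The pair of lineage- cells with Angpt1 were themselves rich in fibroblast genes. Cell 10 (49.1 FPKM) and cell 4 (29.3 FPKM) each carried 14 of 18 fibroblast markers, the highest number among lineage- cells, where the median was 1. Their Col1a2, a chain of type I collagen, stood at 222.7 FPKM in cell 10 and 235.6 FPKM in cell 4, although Col1a2 was detected in 8 of 34 lineage- cells overall and 49 of 50 lineage+ cells. Cell 10 also held Lyz2, a lysozyme of myeloid cells and type 2 pneumocytes, at 320.3 FPKM. Cell 4 was also the lineage- cell with Eng, and cell 10 the one with Tek.

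Angpt1 and Nrp1 were often found together in lineage+ cells. Nrp1 was detected in 24 of the 28 cells with Angpt1 (85.7%) and in 11 of the 22 without (50%). Cells with Angpt1 had a median of 2599.5 detected genes, and those without it 2128, and the part of this difference in the count was not tested. By level the genes most like Angpt1 over the 50 lineage+ cells were Sec31a, a coat protein of secretory vesicles (rho 0.58), Eif4a3, an RNA helicase (0.57), and Actn1, an actinin (0.55).

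The other genes of the same pathways were taken from lists and counted by the same 2-fold rule. List medians are over all measured genes with 1 FPKM added to both means, genes listed at 0 in 1 group included. Each count stands against the 10.6% of all genes called higher and 8.35% called lower. Among the 7588 genes detected in 10% of cells of either group, the shares were 29.7% and 23.4%. A list with many detected genes is therefore better set against these. Of 5 VEGF ligand genes 3 had values and all 3 were higher in lineage+ cells, with a median log2 ratio of 1.63 where the median of all genes was 0. Figf, the gene of VEGF-D, was detected in 27 of 50 lineage+ cells and 4 of 34 lineage- cells, at 56.1 and 18.2 FPKM. Among cells with at least 2000 genes its ratio was -0.045, so its direction depends on that choice. Vegfb stood at 14.4 FPKM in lineage+ cells and 3.97 FPKM in lineage- cells. Vegfc, a ligand of lymphatic vessels, stood at 6.48 FPKM in lineage+ cells and 0.0872 FPKM in lineage- cells, from 5 and 1 cells.

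Of the 5 VEGF receptor and neuropilin genes Nrp1 alone was called higher (20%, against 10.6% of all genes) and none lower. Flt1 and Flt4 were detected in no cell of either group.

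Among 11 angiopoietin and TIE genes 4 were higher in lineage+ cells (36.4%, against 10.6% of all genes) and 1 lower (9.09%, against 8.35%), with a list median of 2.16. Angpt2, which competes with angiopoietin 1 at TEK, was detected in 16 of 50 lineage+ cells and 1 of 34 lineage- cells (6.69 and 0.0917 FPKM), in 15 of 40 fibroblast-like but 1 of 10 mesothelial-like lineage+ cells. Angptl2, an angiopoietin-like secreted protein, stood at 12.3 FPKM in lineage+ cells and 1.97 FPKM in lineage- cells. Angptl4, which inhibits lipoprotein lipase, was the lower one, at 3.83 FPKM in lineage+ cells and 22.5 FPKM in lineage- cells, although detected in 8 and 3 cells. With the mean of log2 values its ratio was 0.023.

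**Figure D4:**
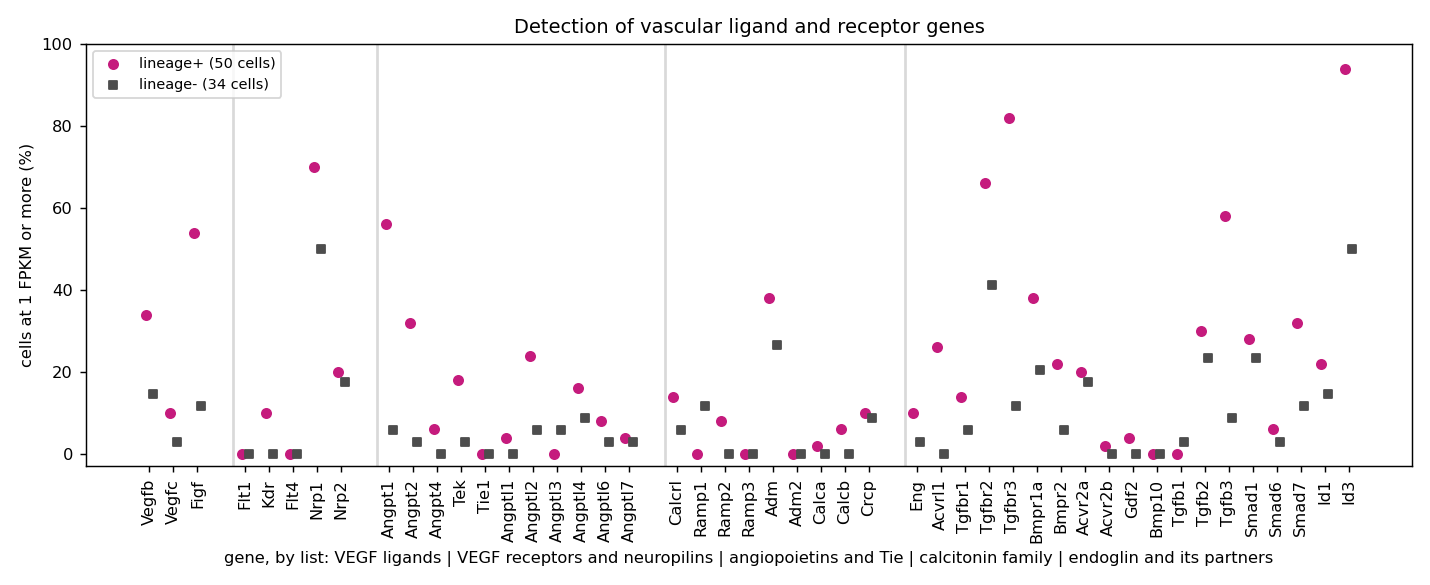
Share of cells, in percent, with each gene of 5 pathway lists at 1 FPKM or more, lineage+ as circles set left of lineage- squares. The lists are VEGF ligands, VEGF receptors and neuropilins, angiopoietins and TIE receptors, the calcitonin family, and endoglin and its partners. Among these genes Tgfbr3, Angpt1, Tgfb3 and Id3 show the widest gaps, with lineage+ above lineage-, while Ramp1 was detected in lineage- cells and in 0 of 50 lineage+ cells.

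In the calcitonin family, with 9 of 11 genes measured, Calcrl was higher in lineage+ cells (11.1%, near the 10.6% of all genes) and Ramp1 and Crcp lower (22.2%, against 8.35%), with a list median of 0.84. In lineage- cells 1 cell held 93.8% of the sum of Ramp1 and 1 cell 53.1% of that of Crcp. Adm, the gene of the CALCRL ligand adrenomedullin, was detected in 19 of 50 lineage+ cells and 9 of 34 lineage- cells (78.6 and 43.4 FPKM), less than 2-fold apart. Calcb, a gene of CGRP, is named after its values were seen: it was detected in 3 of 50 lineage+ cells, all mesothelial-like, at up to 1002 FPKM, and listed at 0 in all 34 lineage- cells. Its near copy Calca was detected in 1 lineage+ cell at 653.3 FPKM, and reads shared between the copies cannot be told apart.

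Of 19 measured genes around endoglin 6 were higher in lineage+ cells (31.6%, against 10.6% of all genes) and 1 lower (5.26%, against 8.35%), with a list median of 0.50. Of the 19, 14 were detected in 10% of cells of either group, and 29.7% of all genes so detected were higher. Tgfbr3, the co-receptor betaglycan, was detected in 41 of 50 lineage+ cells and 4 of 34 lineage- cells, at 85.0 and 2.96 FPKM, for a log2 ratio of 4.44. Tgfb3, a TGF-beta ligand, stood at 61.3 FPKM in lineage+ cells and 5.22 FPKM in lineage- cells (3.33). Id1, a target of BMP signalling, stood at 40.7 FPKM in lineage+ cells and 9.47 FPKM in lineage- cells, and was found in 7 of 10 mesothelial-like but 4 of 40 fibroblast-like lineage+ cells. Tgfbr1, the lower one (3.76 FPKM in lineage+ cells and 10.2 FPKM in lineage- cells), turned to a ratio of 1.74 without the highest cell of each group.

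Among 10 measured semaphorin and plexin genes 2 were higher and 2 lower in lineage+ cells (20% each, against 10.6% and 8.35% of all genes), with a list median of -0.12. Sema3e, whose protein acts on vessels through plexin D1, was the clearest of the lower ones, at 0.133 FPKM in lineage+ cells and 20.9 FPKM in lineage- cells (log2 ratio -4.27, or -0.48 among cells with at least 2000 genes). It was detected in 1 of 50 lineage+ cells and 10 of 34 lineage- cells, among them all 9 epithelial-like cells. Sema3d, at 20.8 FPKM in lineage+ cells and 6.07 FPKM in lineage- cells, and Sema3c, at 15.2 and 3.04 FPKM, were the higher ones.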

How the data were processed

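Cells were sorted by Tbx4 lineage from adult mouse lung, caught on C1 chips, and inspected by eye for doublets and debris, per the labels' protocols. Doublets were not called again. The deposited values were taken as FPKM per gene and cell, 1 table per group. That unit is inferred from values that are not whole and from totals that differ between cells. Per the submitters' processing notes, the tools were RSEM 1.2.20 and Bowtie 1.1.1, and the builds mm9 and GRCm38, with no role stated. Coordinates in the files matched GRCm38 gene positions, and 1 was added to the starts.

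Of 23846 rows, 1830 without values and 731 with repeated symbols were left out. Near-identical profiles (Pearson r 0.996 and 0.997) were averaged. Reads per cell were estimated from steps among low values. On simulated data the estimate came within 2-fold in 36 of 40 cells, so depth is approximate. Detection meant 1 FPKM or more. Ratios are log2 of lineage+ over lineage- means after adding 1 FPKM. Intervals assume cells are independent. Cells were clustered by the Leiden method at resolution 1 (igraph 0.11.9, scanpy 1.11.5), on 15 components of 2000 variable genes with 10 neighbours, leaving out the genes studied. A cluster kept a class name if at least 3 of its markers were detected in 30% of its cells and no other list had more markers among its leading genes. Values were computed with scipy 1.17.1, pandas 2.3.3 and numpy 2.4.6 in Python 3.11.15, and drawn with matplotlib 3.10.9.

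The genes, the lists and the settings were chosen with earlier results of these data known. The text names the 9 genes and the 3 genes most like Nrp1 and Angpt1 by Spearman rho. From each pathway list it names genes past the 2-fold rule, picked by the highest mean in the group where they are higher. A few partners of the receptors were added after their values were seen. Alternatives were other detection, cell, class and scaling choices.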

Additional observations from a re-analysis of the deposited data

Results flagged for a closer look

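Receptor values also occurred in cells left out of all comparisons for having fewer than 1000 detected genes. Lineage+ cell 20, with 812 genes, had Nrp1 at 18.7 FPKM. Lineage- cell 11, with 628 genes, had Calcrl at 22.4 FPKM, above both kept lineage- cells in which it was detected. Lineage- cell 33, with 752 genes, had Nrp1 at 1.38 FPKM. Pecam1 was listed at 0 in these 3 cells.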

How the results depend on the processing

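No paired analysis was possible because the results come from no test and the cell numbers shared by the groups only name cells. The count of 5 genes at least 2-fold higher in lineage+ cells was 2 with 10 FPKM added, with the mean of log2 values and with detection asked in 25% of cells, and 4 to 6 otherwise. With 10 FPKM added the log2 ratios of Tek, Calcrl and Eng were 0.76, 0.34 and 0.29, and with the mean of log2 values 0.65, 0.40 and 0.41. Over all settings Angpt1 ranged from 1.65 to 4.17 and Nrp1 from 1.26 to 2.94. The share of lineage+ cells with a receptor but neither junction gene was 98% with detection at any value above 0, 94.3% among cells with at least 2000 genes, and 76% to 90% otherwise. Kdr stayed at 50% of mesothelial-like cells under both other class rules. Among cells with at least 2000 genes the ratios of Figf (-0.045), Tgfbr1 (1.91), Pdgfa (0.092) and Epas1 (0.026) changed sign. So did Tgfbr1 (1.74) and Epas1 (0.25) without the highest cell of each group, and Angptl4 (0.023) and Tgfbr1 (0.20) with the mean of log2 values. The cause was not tested. The cut at 2000 genes also changes which lineage- classes are compared. All 4 fibroblast-like lineage- cells pass it, with 2153 or more genes, while the epithelial-like ones have a median of 1750. Requiring 2000000 estimated reads, a setting chosen after seeing the data, left the count at 5 and the share at 86%. In up to 3 lineage- cells 1 read is worth over 1 FPKM, which limits detection there.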

Other observations

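Of 15 measured ligand and receptor genes outside the families above, 4 passed the 2-fold rule as higher in lineage+ cells (26.7%, against 10.6% of all genes) and 0 as lower (against 8.35%), with a list median of 0.03. Cxcl12, a chemokine, stood at 111 FPKM in lineage+ cells and 24.8 FPKM in lineage- cells, detected in 32 of 50 and 3 of 34 cells, although its log2 ratio was 0.64 among cells with at least 2000 genes. Ednra, an endothelin receptor, stood at 18.3 FPKM in lineage+ cells and 0.361 FPKM in lineage- cells. The guidance ligand Slit2 was detected in 20 of 50 lineage+ cells and 1 of 34 lineage- cells, and Slit3 in 23 of 50 and 6 of 34.

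Of 6 measured PDGF genes 3 were higher in lineage+ cells (50%, against 10.6% of all genes) and 2 lower (33.3%, against 8.35%), with a list median of 0.67. Of the 6, 5 were detected in 10% of cells of either group, where 29.7% of all such genes were higher and 23.4% lower. The higher ones included Pdgfrl (27.6 FPKM in lineage+ cells, against 1.87 FPKM in lineage- cells) and Pdgfrb (8.04 and 0.291 FPKM). Both lower ones were ligands. Pdgfb, which recruits pericytes, was listed at 0 in all 50 lineage+ cells and detected in 6 of 34 lineage- cells (13.7 FPKM), and Pdgfa stood at 7.80 FPKM in lineage+ cells and 22.5 FPKM in lineage- cells, with a log2 ratio that turned to 0.092 among cells with at least 2000 genes. Of 10 hypoxia-linked genes 1 was higher (10%, near the 10.6% of all genes) and 2 lower (20%, against 8.35%). Bnip3 was the higher one (53.0 FPKM in lineage+ cells, against 12.1 FPKM in lineage- cells). Epas1 (4.20 FPKM in lineage+ cells and 17.5 FPKM in lineage- cells) and Slc2a1 (1.66 and 14.7 FPKM) were lower. The ratio of Epas1 turned to 0.026 among cells with at least 2000 genes and to 0.25 with the highest cell left out on each side. Slc2a1 was detected in 6 lineage+ cells and 4 lineage- cells, and 1 lineage- cell at 446.2 FPKM held 89.6% of the lineage- sum.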
